A study of Mus musculus with 6 samples.

Results

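Macrophages live in most tissues and clear debris, and the 10 genes described here mark such resident cells and their display of antigen. Cx3cr1 encodes the receptor for the chemokine fractalkine, Mrc1 the mannose receptor CD206, and Emr1 the surface protein F4/80. Lyz2 encodes lysozyme, which monocytes, macrophages and neutrophils make. C1qa, C1qb and C1qc encode the chains of C1q, the recognition protein of the classical complement pathway, which macrophages are known to produce. H2-Aa and H2-Ab1 encode the alpha and beta chains of the mouse MHC class II molecule I-A, and Cd74 encodes the invariant chain that escorts class II molecules through the cell. The lens itself has no blood supply, and the macrophages nearest to it are known from the ciliary body and the iris.

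The members were chosen by symbol as 4 resident macrophage markers, 3 C1q chains and 3 genes of MHC class II, 10 of 24147 genes in the deposited count tables. Every library came from wild-type C57BL/6 mice aged 2 months whose lens fiber cells had been removed, and held the capsule with its adhering epithelial cells. There were 3 libraries of tissue taken 24 h after the operation and 3 of tissue taken straight after it (0 h), and they model cataract surgery. The sources used here do not say how many eyes or animals a library pools, so p-values measure only the spread between these libraries, which may be technical.

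Summed gene counts were 8069314 to 9249248 at 24 h and 8734906 to 10862573 at 0 h, and lens transcripts were abundant in each library. Cryaa, the lens alpha-A crystallin, was at 41498 to 51367 CPM (a gene's counts scaled to a common library size) at 24 h and at 66604 to 111905 CPM at 0 h. Pigment cell RNA differed between the 24 h libraries, with Dct, a melanin synthesis gene, at 489, 63.7 and 254 CPM in replicates 1 to 3, against 52.6, 69.5 and 19.9 CPM in the 0 h replicates. The tissue therefore held RNA of cells other than lens epithelium at both times, and the part of those cells in the results below was not tested. Levels are given in CPM on library sizes scaled by TMM, a method that sets libraries on a common scale. A gene was called changed when edgeR's quasi-likelihood test, adjusted over 13956 genes by the Benjamini-Hochberg method, gave an adjusted p under 0.05.

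The promoter sequences below show letters tied by textbook knowledge to 2 regulators of these genes. The windows printed are those that held a match, so they do not compare class II genes with macrophage genes. They are the 250 bases before the transcription start in RefSeq on GRCm38.p6. Such windows were read for 6 of the 10 members, and Cd74 was left out of the search. Class II promoters are known for an X box and a Y box, which the RFX, CREB and NF-Y factors bind and to which the coactivator CIITA is recruited. Capitals in H2-Aa (chr17:34287824-34288073, minus strand) mark TGACGTCA, an X2 box, and CTGATTGG, a Y box, 15 bases apart. Capitals in Mrc1 (chr2:14229164-14229413, plus strand) and C1qc (chr4:136892915-136893164, minus strand) mark GAGGAAG, the core bound by the myeloid factor PU.1, which stands there on the opposite strand as CTTCCTC.
H2-Aa: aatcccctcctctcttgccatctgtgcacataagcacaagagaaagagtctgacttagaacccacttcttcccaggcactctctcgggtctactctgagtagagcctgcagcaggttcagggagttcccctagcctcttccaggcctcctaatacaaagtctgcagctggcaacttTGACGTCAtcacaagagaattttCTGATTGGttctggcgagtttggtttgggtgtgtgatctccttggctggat
Mrc1: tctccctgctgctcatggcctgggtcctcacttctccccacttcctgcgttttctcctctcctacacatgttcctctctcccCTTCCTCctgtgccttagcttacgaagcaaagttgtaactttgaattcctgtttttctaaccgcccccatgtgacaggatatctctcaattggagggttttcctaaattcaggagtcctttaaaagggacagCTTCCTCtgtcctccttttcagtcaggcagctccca
C1qc: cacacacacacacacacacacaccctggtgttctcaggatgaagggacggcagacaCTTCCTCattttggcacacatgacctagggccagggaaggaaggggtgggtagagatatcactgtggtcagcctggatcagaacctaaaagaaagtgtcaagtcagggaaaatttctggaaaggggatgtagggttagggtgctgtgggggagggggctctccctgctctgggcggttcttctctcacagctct
On either strand, TGACGTCA was in 1.55% of the 32851 promoter windows of this length in the table, CTGATTGG in 3.83% and GAGGAAG in 10.6%. TGACGTCA together with CTGATTGG was found in 0.0791% of the windows. The windows of Cx3cr1, C1qb and Lyz2 held no exact match to the 3 motifs, which do not overlap each other in the windows printed. Shorter or variant forms of the motifs were not searched. These matches are letters in a window and say nothing of what was bound.

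Across the 10 members, the macrophage receptor genes Cx3cr1 and Mrc1 fell by 24 h, while the class II genes Cd74 and H2-Aa had higher means at 24 h without passing the test. Of the 10, 2 fell, 0 rose and 8 were not called. The background over all genes tested was 28.2% called, with 15.2% higher and 13% lower. Leaving out 1 library moved the members' count of lower genes to 1 (0 h replicate 2 or 3, 24 h replicate 1 or 2) or to 3 (0 h replicate 1, 24 h replicate 3). The count of higher genes was 1 without 0 h replicate 3 (Cd74) or 24 h replicate 2 (Lyz2). At an unadjusted p under 0.05 there were 6 members, 4 of them lower and 2 higher at 24 h, beside 39.9% of all genes tested (19.3% lower and 20.7% higher), and with DESeq2 and with limma-voom the count of called higher members was also 0. The median log2 fold change of the members was -0.63, against -0.03 for all genes tested, and 6 members had a value below 0. All 10 passed the low-count filter, with 13 to 592 counts per library. In these bulk libraries, fewer cells of a type and less RNA per cell cannot be told apart.

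**Figure D1:**
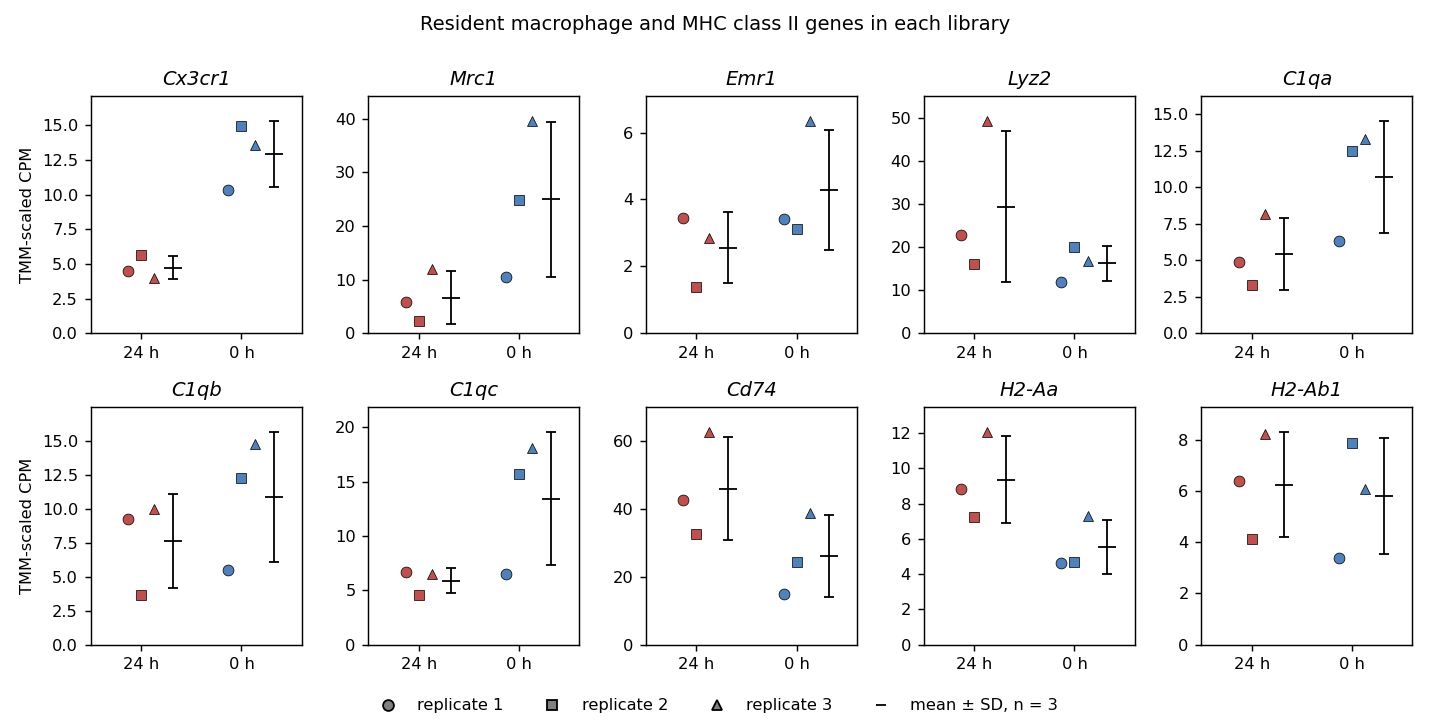
TMM-scaled CPM (y axis, linear from 0) of each of the 10 genes in every library at 24 h (red) and 0 h (blue), with symbols for replicates 1 to 3 and bars for mean ± SD of 3 libraries. Cx3cr1 lay at 4.02 to 5.63 CPM at 24 h, below its 10.3 to 14.9 CPM at 0 h, and the 2 groups overlapped for the other 9 genes.

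Cx3cr1 (chromosome 9, 120048683 to 120068296 on mm10, minus strand) had 4.48, 5.63 and 4.02 CPM at 24 h, against 10.3, 14.9 and 13.5 CPM at 0 h. It was the single member whose 24 h libraries all lay below those of 0 h, where 44.7% of all genes tested had times that did not overlap and 21.8% lay lower at 24 h in this way. Its level fell 2.74-fold (log2 fold change -1.45 ± 0.27, SE, adjusted p = 0.00501), and it was called lower in 14 of 14 alternative analyses. In contrast Cx3cl1, which encodes the ligand fractalkine, had 237, 237 and 206 CPM at 24 h against 117, 73.8 and 97.0 CPM at 0 h. Cx3cl1 rose 2.36-fold (adjusted p = 0.00175). The ligand gene was thus higher and the receptor gene lower in the 24 h libraries.

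Mrc1, whose product takes up glycoproteins bearing mannose (chromosome 2, 14229414 to 14332023, plus strand), had 5.75, 2.23 and 11.9 CPM at 24 h, against 10.5, 24.7 and 39.5 CPM at 0 h. The 2 groups overlapped, since the highest 24 h library, replicate 3, lay above the lowest 0 h library, replicate 1. Its level fell 3.73-fold (log2 fold change -1.90 ± 0.61, adjusted p = 0.0471), close to the threshold. The call was lost on leaving out 0 h replicate 2 (adjusted p = 0.0951) or 3 (0.174), or 24 h replicate 1 (0.122) or 2 (0.0990). Dropping 0 h replicate 3 gave a log2 fold change of -1.39, and dropping 24 h replicate 3 gave -2.65.

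Emr1, long used to recognise mouse macrophages (chromosome 17, 57358686 to 57483529, plus strand), had the lowest mean level per kilobase of the members at both times. It had 3.45, 1.38 and 2.85 CPM at 24 h and 3.41, 3.11 and 6.34 CPM in the 0 h libraries. The 2 groups overlapped and the gene was not called (fold 0.599, 95% interval 0.277 to 1.29, adjusted p = 0.3).

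The 3 C1q genes lie side by side on chromosome 4, with 3624 bases between C1qb and C1qc and 3001 between C1qc and C1qa. C1qa (136895916 to 136898844) had 4.86, 3.29 and 8.14 CPM at 24 h, against 6.31, 12.5 and 13.3 CPM at 0 h. C1qb (136880145 to 136886177) had 9.21, 3.61 and 9.94 CPM at 24 h, against 5.51, 12.2 and 14.8 CPM at 0 h. C1qc (136889802 to 136892914) had 6.65, 4.57 and 6.45 CPM at 24 h, against 6.51, 15.7 and 18.1 CPM at 0 h. For each chain, 0 h replicate 1 lay within the range of the 24 h libraries, while 0 h replicates 2 and 3 lay above it.

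None of the 3 chains was called in the main test. C1qc came nearest, at a fold of 0.439 with a 95% interval of 0.237 to 0.813 (adjusted p = 0.0513), and it was called lower in 3 of 14 alternatives. These were DESeq2 (adjusted p = 0.0233), no low-count filter (0.0415) and leaving out 0 h replicate 1 (0.0113). C1qa was at a fold of 0.509 (0.264 to 0.981, adjusted p = 0.115) and was called lower when 24 h replicate 3 was left out (adjusted p = 0.0374). C1qb was at 0.701 (0.338 to 1.45, adjusted p = 0.452). The interval of C1qb includes both no change and the value of C1qc, so the chains were not shown to differ from each other.

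Per kilobase, in the authors' deposited RPKM (reads per kilobase of the listed length, scaled for depth), the chains were at like levels. C1qa, C1qb and C1qc averaged 5.12 ± 2.28, 7.23 ± 3.10 and 5.70 ± 0.840 RPKM at 24 h (SD, n = 3). At 0 h they averaged 9.73 ± 3.801, 10.01 ± 4.56 and 12.5 ± 5.94 RPKM, so neighbours in either order were within their spread.

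Lyz2 (chromosome 10, 117277541 to 117282272, minus strand) had 22.9, 16.1 and 49.4 CPM at 24 h, against 11.9, 20.1 and 16.7 CPM at 0 h. Its highest value was in 24 h replicate 3, and 24 h replicate 2 lay within the range of the 0 h libraries. The fold was 1.81 (95% interval 0.971 to 3.39, adjusted p = 0.142), with a log2 fold change of 0.86, which was 0.26 without 24 h replicate 3. Without 24 h replicate 2 it was called higher (adjusted p = 0.0488). Lyz1, a near-identical neighbour gene 5522 bases away, had 2.174, 1.27 and 7.82 CPM at 24 h, against 1.90, 1.70 and 4.15 CPM at 0 h, and reads of the pair may not be told apart.

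Per kilobase, the mean of Cd74 was the highest of the members at both times, though Lyz2 stood higher in some libraries. These were 24 h replicate 3 and 0 h replicates 1 and 2. Cd74 (chromosome 18, 60803849 to 60812652, plus strand) had 42.6, 32.7 and 62.6 CPM at 24 h, against 15.0, 24.4 and 38.8 CPM at 0 h. Only 0 h replicate 3 reached into the range of the 24 h libraries. The fold was 1.77 (95% interval 1.02 to 3.06, adjusted p = 0.114), and Cd74 was called higher without 0 h replicate 3 (adjusted p = 0.0379).

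H2-Aa, whose promoter is printed above (chromosome 17, 34282751 to 34287771, minus strand), had 8.82, 7.22 and 12.1 CPM at 24 h, against 4.61, 4.71 and 7.32 CPM at 0 h. The groups overlapped by 1 library, with 0 h replicate 3 just above 24 h replicate 2. The fold was 1.69 (1.02 to 2.82, adjusted p = 0.115), and H2-Aa was called in 0 of 14 alternatives.

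H2-Ab1 (chromosome 17, 34263227 to 34269418, plus strand) had 6.39, 4.14 and 8.25 CPM at 24 h and 3.41, 7.92 and 6.10 CPM at 0 h, and its groups overlapped. Its fold was 1.08 with an interval of 0.569 to 2.04 (adjusted p = 0.872), which leaves room for the value of H2-Aa. Per kilobase, Cd74 averaged 33.2 ± 10.6 RPKM at 24 h and 17.9 ± 7.99 RPKM at 0 h. H2-Aa averaged 8.97 ± 2.24 RPKM at 24 h and 5.02 ± 1.27 RPKM at 0 h, and H2-Ab1 averaged 5.35 ± 1.64 RPKM at 24 h and 4.82 ± 2.21 RPKM at 0 h.

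Ordered by RPKM, the highest mean at 24 h was that of Cd74, then Lyz2, H2-Aa, C1qb, C1qc, H2-Ab1 and C1qa, with Cx3cr1, Mrc1 and Emr1 lowest. At 0 h the order was Cd74, Lyz2, C1qc, C1qb, C1qa, H2-Aa, H2-Ab1, Mrc1, Cx3cr1 and Emr1. The mean of H2-Aa stood below those of the C1q chains at 0 h and above them at 24 h. Most neighbours in either order differed by less than the SD of at least 1 of them. The exceptions were the steps from Lyz2 to H2-Aa and from C1qa to Cx3cr1 at 24 h, and from C1qa to H2-Aa and from Cx3cr1 to Emr1 at 0 h.

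Libraries of the same time tended to differ in many members at once. Among the 24 h libraries, replicate 2 was lowest for 9 of the 10 genes and replicate 3 highest for 7. Among the 0 h libraries, replicate 1 was lowest for 9 and replicate 3 highest for 7. The members' summed level was 115, 80.9 and 176 CPM at 24 h, against 77.6, 140.5 and 174 CPM at 0 h, so the total did not separate the times.

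Of the ratios formed within a library, some separated the times and that of Cd74 over the sum of H2-Aa and H2-Ab1 did not, at 2.80, 2.88 and 3.08 at 24 h against 1.88, 1.94 and 2.89 at 0 h. The summed CPM of Cd74, H2-Aa and H2-Ab1 was 5.65, 5.61 and 5.19 times that of Cx3cr1 and Mrc1 at 24 h, against 1.11, 0.934 and 0.984 times at 0 h. Set against the C1q chains, the class II sum was 2.79, 3.84 and 3.38 times as high at 24 h and 1.26, 0.916 and 1.13 times at 0 h. The C1q sum itself was 2.02, 1.46 and 1.54 times that of Cx3cr1 and Mrc1 at 24 h, against 0.880, 1.02 and 0.869 times at 0 h. Lyz2 over the C1q sum was 1.10, 1.41 and 2.01 at 24 h, against 0.650, 0.498 and 0.362 at 0 h. In each of the last 4 ratios every 24 h library lay above every 0 h library. The ratios were formed with earlier results known and are given with no test. Cx3cr1 and Mrc1 are the 2 members called lower, and Emr1, which was not called, was left out of their sum. Each of the 4 sets genes with a higher mean or a smaller fall over genes whose means were lower at 24 h. Their separation thus follows in part from the choice of terms. Of single genes tested, 44.7% had times that did not overlap.

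**Figure D2:**
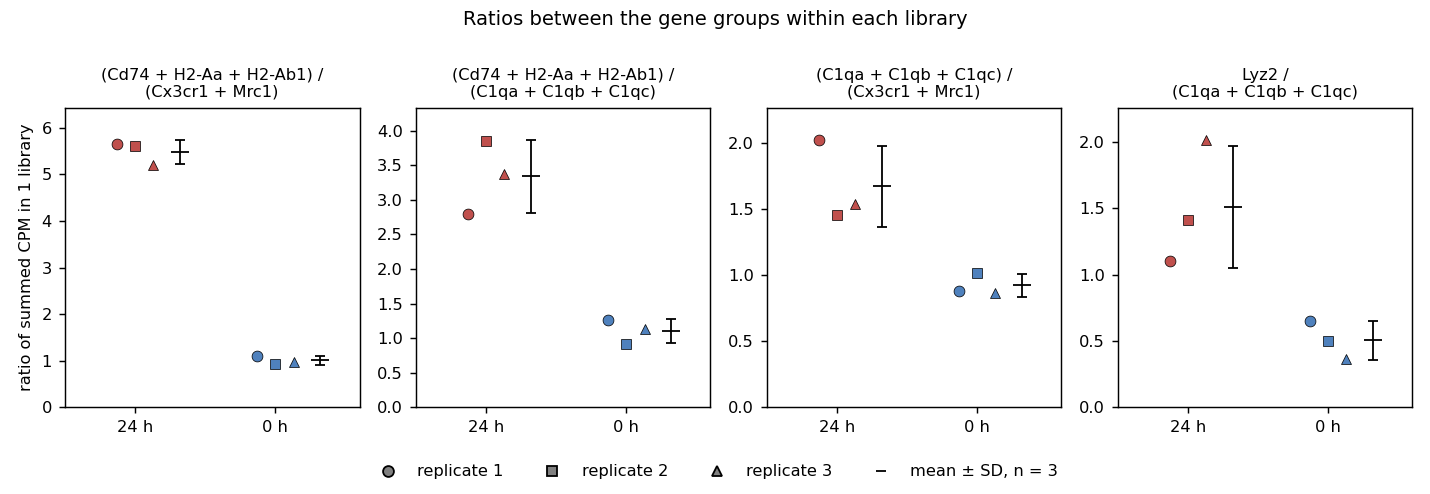
Ratios of summed CPM between gene groups within each library (y axes, linear from 0) at 24 h (red) and 0 h (blue), with symbols for replicates 1 to 3 and bars for mean ± SD of 3 libraries. The class II to Cx3cr1 and Mrc1 ratio was 5.19 to 5.65 at 24 h and 0.934 to 1.11 at 0 h, and the groups did not overlap in any of the 4 panels. The terms of the ratios were chosen with earlier results known, so this separation follows in part from that choice.

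Other markers of resident macrophages went both ways. Of 26 listed, 21 passed the low-count filter, of which 3 rose, 6 fell and 12 were not called, with a median log2 fold change of -0.12. Csf1r, the receptor for the macrophage growth factors CSF1 and IL-34, had 13.04, 6.80 and 17.8 CPM at 24 h against 16.7, 35.9 and 43.1 CPM at 0 h. Csf1r fell 2.54-fold (adjusted p = 0.0406), a call lost on leaving out 0 h replicate 2 (0.104) or 3 (0.147), or 24 h replicate 1 (0.0940) or 2 (0.0974). Cd163, the scavenger receptor for haemoglobin, which was chosen after its values were seen, had 0.767, 2.12 and 1.80 CPM at 24 h against 4.71, 8.32 and 8.42 CPM at 0 h. Its groups did not overlap, and it fell 4.49-fold (adjusted p = 0.00932).

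The markers that rose were Cd68, Fcgr3 and Mertk. Cd68, a glycoprotein of the lysosomes of phagocytes, had 30.6, 32.3 and 40.5 CPM at 24 h against 3.61, 6.31 and 7.81 CPM at 0 h. Cd68 rose 5.85-fold (adjusted p = 0.000489). Fcgr3, an activating Fc receptor shared with neutrophils, rose 3.11-fold (adjusted p = 0.0101), and Mertk, a receptor for the uptake of dying cells, rose 1.97-fold (adjusted p = 0.00575), both named after their values were seen.

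Maf, Sall1 and Sepp1 were among the markers that fell. Maf, which is also a transcription factor of the lens, had 152 ± 38.6 CPM at 24 h, against 354 ± 58.1 CPM at 0 h (n = 3 each). Sall1, a transcription factor of microglia, had 47.1 ± 7.01 CPM at 24 h, against 102 ± 12.99 CPM at 0 h. Sepp1, which encodes a selenium carrier, had 47.8 ± 39.99 CPM at 24 h, against 164 ± 34.2 CPM at 0 h. Maf fell 2.33-fold (adjusted p = 0.00388), Sall1 2.171-fold (0.00146) and Sepp1 3.42-fold (0.0449). At 0 h the means of Maf, Sall1 and Sepp1 stood above those of Csf1r (31.9 CPM), the leukocyte gene Ptprc (3.75 CPM) and P2ry12, another listed marker (1.52 CPM). Which cells carried the RNA of Maf, Sall1 and Sepp1 was not tested. Sepp1 lost its call on leaving out 0 h replicate 1 (0.119), 2 (0.0635) or 3 (0.118), or 24 h replicate 1 (0.124). Its log2 fold change was -1.77, and dropping 24 h replicate 3 made it -2.65. The list's count of lower genes was 3 without 0 h replicate 3 or without 24 h replicate 1.

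**Figure D3:**
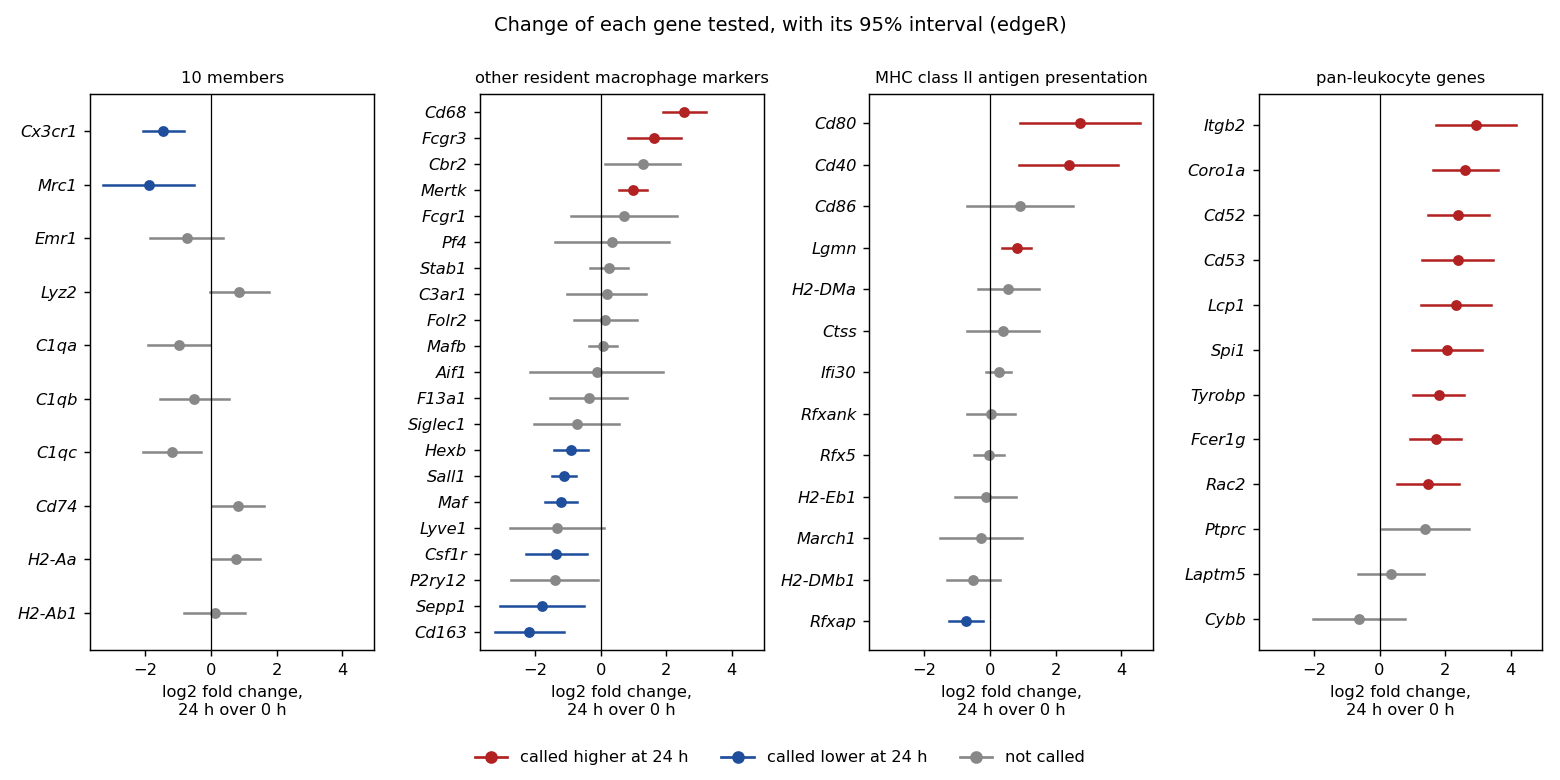
Log2 fold change of 24 h over 0 h (x axis) with its 95% interval for the 10 members, 21 other resident macrophage markers, 13 genes of MHC class II antigen presentation and 12 pan-leukocyte genes that were tested. Colours show genes called higher (red), called lower (blue) or not called (grey) by edgeR, with 2 members called lower and 9 pan-leukocyte genes called higher.

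Other genes of the class II pathway were called at a share near that of all genes tested (28.2%). Of 17 listed genes 13 were tested, of which 3 rose, 1 fell and 9 were not called, with a median log2 fold change of 0.26. H2-Eb1, the beta chain of the I-E molecule, had 5.50, 3.29 and 7.30 CPM at 24 h against 3.91, 6.01 and 7.81 CPM at 0 h, and its groups overlapped (adjusted p = 0.837). Ciita, the master regulator of class II transcription, had 9, 2 and 12 counts at 24 h and 9, 9 and 8 counts at 0 h, and did not pass the low-count filter. Rfx5, a subunit of the factor that binds the X box, had 19.4 ± 3.65 CPM at 24 h, against 19.8 ± 2.67 CPM at 0 h (adjusted p = 0.92). Ifi30, a thiol reductase that prepares antigen in lysosomes, had 27.9 ± 3.88 CPM at 24 h, against 23.2 ± 1.197 CPM at 0 h (adjusted p = 0.273).

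The class II pathway genes that rose were Lgmn, Cd80 and Cd40, and the one that fell was Rfxap. Lgmn, a lysosomal protease that also acts outside antigen presentation, had 137, 196 and 227 CPM at 24 h against 103, 99.2 and 116 CPM at 0 h. Lgmn rose 1.76-fold (adjusted p = 0.0145, and 0.0526 without 0 h replicate 2). Cd40, a costimulatory receptor, had 2.69, 2.44 and 1.37 CPM at 24 h against 0.301, 0.200 and 0.732 CPM at 0 h (adjusted p = 0.0269). The call of Cd40 was lost on leaving out 0 h replicate 1 (0.0880) or 2 (0.101), or 24 h replicate 1 (0.0775) or 2 (0.0677). Its log2 fold change was 2.40, and dropping 0 h replicate 3 gave 3.07. The count of higher genes was 1 without 0 h replicate 1 or without 0 h replicate 2. The count of lower genes was 0 without any 1 of the 0 h libraries, 24 h replicate 2 or 24 h replicate 3.

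Interferon-gamma is the best known inducer of Ciita, and Ifng itself had 0 counts in all 6 libraries, which allows up to 0.317 to 0.384 CPM at 24 h and 0.301 to 0.366 CPM at 0 h from counting error alone. Of the 8 tested genes of its signalling list, out of 9, 5 rose, 0 fell and 3 were not called, with a median log2 fold change of 0.59. Irf1, a transcription factor that acts on the Ciita gene, had 35.7, 36.1 and 28.8 CPM at 24 h against 13.4, 15.7 and 11.7 CPM at 0 h. Irf1 rose 2.45-fold (adjusted p = 0.00145). The receptor gene Ifngr2 rose 2.08-fold (adjusted p = 0.00316), and the kinase genes Jak1 and Jak2 rose 1.56-fold (0.0130) and 1.47-fold (0.0176, and 0.0557 without 0 h replicate 2).

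Signals that act on macrophages were measured in the same libraries. Of 11 listed genes 7 were tested, of which 4 rose, 0 fell and 3 were not called, with a median log2 fold change of 1.03. Csf1, the ligand of Csf1r, had 286, 325 and 171 CPM at 24 h against 38.3, 46.1 and 39.3 CPM at 0 h. Csf1 rose 6.33-fold (adjusted p = 0.000192). Mif, a cytokine that binds the CD74 protein, had 104 ± 26.3 CPM at 24 h, against 120.2 ± 9.85 CPM at 0 h (adjusted p = 0.435), and its coreceptor gene Cd44 rose 2.04-fold (adjusted p = 0.011).

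C1q acts with the proteases C1r and C1s, and genes of these first complement steps went both ways. Of 7 listed genes 6 were tested, of which 3 rose, 2 fell and 1 was not called, with a median log2 fold change of 1.22. C3, the central component, had 281, 332 and 974.7 CPM at 24 h against 54.9, 126 and 82.8 CPM at 0 h. C3 rose by 2.59 on the log2 scale (adjusted p = 0.00615), and by 1.81 without 24 h replicate 3. C4b, which C1s cleaves, fell 2.31-fold (adjusted p = 0.00984) and Serping1, the C1 inhibitor, fell 1.88-fold (0.0149, but 0.0619 without 0 h replicate 3 and 0.0512 without 24 h replicate 1). The count of higher genes was 1 without any 1 of the 0 h libraries or 24 h replicate 1, and that of lower genes was 1 without 0 h replicate 3 or 24 h replicate 1.

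Most genes that leukocytes share rose. Of 12 pan-leukocyte genes tested, 9 rose, 0 fell and 3 were not called, with a median log2 fold change of 1.93, and the 9 that rose were highest in 24 h replicate 3. Lcp1, an actin-bundling protein of blood cells, had 29.2, 24.2 and 60.4 CPM at 24 h against 3.41, 8.32 and 11.1 CPM at 0 h. Lcp1 rose 5.01-fold (adjusted p = 0.00696) and Coro1a, a leukocyte coronin, 6.13-fold (0.00298). Ptprc, which encodes CD45, had 6.91, 5.95 and 16.6 CPM at 24 h against 1.403, 3.51 and 6.34 CPM at 0 h, and did not pass the test (adjusted p = 0.108). Its log2 fold change was 1.401, while dropping 0 h replicate 3 gave 2.02 and dropping 24 h replicate 3 gave 0.79.

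Most monocyte and neutrophil markers that were tested also rose. Of 12 monocyte markers 6 were tested, of which 5 rose, 0 fell and 1 was not called, with a median log2 fold change of 3.69 and each of the 5 highest in 24 h replicate 3. The list's summed level overlapped between the times, at 101 to 199.8 CPM at 24 h and 90.2 to 151 CPM at 0 h. Ace, an enzyme gene that was not called (adjusted p = 0.221), supplied most of that level at 0 h. Cd14, a lipopolysaccharide coreceptor, had 30.7, 34.3 and 43.9 CPM at 24 h against 2.104, 5.01 and 3.90 CPM at 0 h, a 9.87-fold rise (adjusted p = 0.00022). Ccr2, the receptor by which monocytes follow CCL2, had 1.66, 2.23 and 21.04 CPM at 24 h against 0.401, 0.301 and 0.488 CPM at 0 h. Ccr2 rose by 4.36 on the log2 scale (adjusted p = 0.0176), and by 2.27 without 24 h replicate 3, and lost its call on leaving out 0 h replicate 1 (0.0695), 2 (0.0615) or 3 (0.0552). That replicate, 24 h replicate 3, was also the library with the highest Lyz2, Cd74, H2-Aa and H2-Ab1. Among the 24 h libraries it was also highest for Mrc1, C1qa and C1qb, whose means were lower at 24 h.

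Of 17 neutrophil markers 16 were found and 10 tested, of which 9 rose, 0 fell and 1 was not called. Their median log2 fold change was 4.92, and 4.81 with the gene at 0 counts in every 0 h library set at its lower bound of 3 counts over the group. The list's summed level was 130.4 to 250.1 CPM at 24 h and 9.12 to 18.4 CPM at 0 h. Camp, Ngp, Mpo and Elane, genes of neutrophil granules, had at most 3 counts in each library. Ltf, another granule gene, had 7, 6 and 3 counts at 24 h against 4, 0 and 1 counts at 0 h, and did not pass the low-count filter. Csf3r, the receptor for granulocyte growth factor, had 33.6, 29.4 and 49.7 CPM at 24 h against 1.403, 2.20 and 2.32 CPM at 0 h. Csf3r rose 19.0-fold (adjusted p = 6.16e-05). The part of incoming cells in the levels of Lyz2 and the class II genes was not tested.

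**Figure D4:**
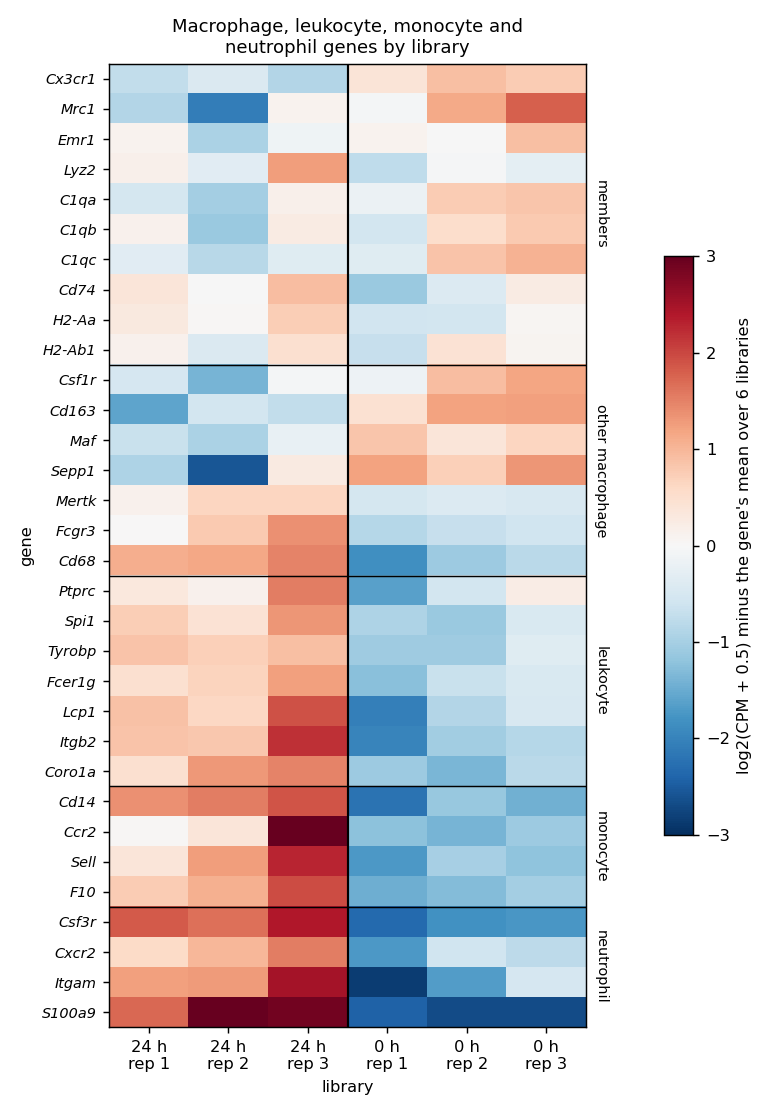
Log2(CPM + 0.5) of each gene (rows) in each library (columns, 24 h left and 0 h right) minus the gene's mean over the 6 libraries, with red above and blue below the mean and colours ending at 3. Rows hold the 10 members and examples of the macrophage, leukocyte, monocyte and neutrophil lists picked after their values were seen, and Cd68 at 30.6 to 40.5 CPM in 24 h libraries contrasts with Cx3cr1 at 4.02 to 5.63 CPM.

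Most listed genes of macrophage activation rose, and neutrophils, whose markers also rose, are known to express several of them, such as Il1b and Il1rn. Of 12 listed 10 were tested, of which 9 rose, 0 fell and 1 was not called, with a median log2 fold change of 6.01, and 5.84 with the 2 genes at 0 counts in every 0 h library at their lower bounds. Il1b, an inflammatory cytokine, had 33.1, 37.9 and 28.5 CPM at 24 h against 1.00, 1.10 and 1.22 CPM at 0 h. Il1b rose 29.7-fold (adjusted p = 1.24e-05), and Il1rn, which blocks its receptor, reached 49.5, 80.4 and 52.9 CPM at 24 h. Arg1, an enzyme of repair-type macrophages, had 7.42, 25.4 and 59.2 CPM at 24 h against 0.501, 0.301 and 0.976 CPM at 0 h, a rise of 5.71 on the log2 scale (adjusted p = 0.0016) and of 4.81 without 24 h replicate 3.

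Markers of dendritic cells, lymphocytes and mast cells were at low levels, and so were some of the members. Of 10 dendritic cell markers 2 were tested, of which 1 rose, 0 fell and 1 was not called, with a median log2 fold change of 1.29. The list summed to 7.97 to 10.4 CPM at 24 h and 5.21 to 8.17 CPM at 0 h. The 2 tested, Itgax and Zbtb46, averaged 3.38 and 3.89 CPM at 24 h, beside 2.56 CPM for Emr1 and 4.71 CPM for Cx3cr1. Itgax, the integrin CD11c, which macrophages can also carry, rose 3.82-fold (adjusted p = 0.0312) and lost its call on leaving out 0 h replicate 1 (0.0895) or 2 (0.102), or 24 h replicate 1 (0.0695) or 3 (0.0780). None of 12 lymphocyte and none of 5 mast cell markers passed the low-count filter. The lymphocyte list summed to 0.740 to 2.66 CPM at 24 h and 1.30 to 2.20 CPM at 0 h, and the mast cell list to 0 to 1.16 CPM at 24 h and 0 to 1.10 CPM at 0 h. The B cell genes Cd79a, Cd79b and Ms4a1, markers of a cell type that also carries class II, had at most 3 counts in each library.

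Vascular, pigment and lens lists were read as the setting of these genes. Of 8 vascular and stromal markers 7 were tested, of which 2 rose, 1 fell and 4 were not called, with a median log2 fold change of 0.07. Cdh5, a junction protein of vessel walls, had 13.4, 5.31 and 6.13 CPM at 24 h, against 0.401, 1.10 and 0.366 CPM at 0 h (adjusted p = 0.00253), a log2 difference of 3.68, or 4.37 when 0 h replicate 2 was left out. The list's higher count was 1 on leaving out replicate 1 of either time, and its lower count was 2 on leaving out 0 h replicate 2 or replicate 3 of either time. Of 9 pigment and photoreceptor markers 3 rose, 0 fell and 6 were not called, with a median of -0.33. The 3 were pigment genes, and the count was 0 on leaving out 0 h replicate 1 or 3 or 24 h replicate 1, and 1 on leaving out 24 h replicate 3. Of 6 lens epithelium markers 2 fell, 0 rose and 4 were not called, with a median of -0.71, where the count was 1 on leaving out 0 h replicate 1 or 3 or 24 h replicate 1 or 2, and 3 on leaving out 0 h replicate 2. Foxe3, a lens epithelial transcription factor, fell 2.94-fold (adjusted p = 0.00145).

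Genes of like pattern over the 6 libraries were ranked above a mean of 10 CPM, a limit that leaves out Cx3cr1, Emr1, Cd163 and other macrophage markers. The 5 with the highest Pearson r of log2 CPM to the mean of the 3 chains, among 9699 genes, were Huwe1, Usp53, Mpv17, Cox20 and Insig1, at r = 0.990, 0.987, 0.986, 0.985 and 0.984. There were 133 genes with r over 0.9. For the mean of Cd74, H2-Aa and H2-Ab1, genes among the 5 highest included Ppp1r12a, Xpo1, Rapgef6 and Sepn1, at r = 0.989, 0.971, 0.967 and 0.965, with 48 genes over 0.9 of 9698. These r values describe likeness over 6 libraries taken at 0 h and 24 h, where a difference between the times can by itself raise r. They carry no test.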

How the data were processed

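RNA was measured by sequencing in 3 libraries taken 24 h after lens fiber removal and 3 taken at 0 h, grouped by their titles. Per the submitters' processing notes, the tools include TopHat2 2.1.0 and HTSeq 0.6.1p1, beside Trim Galore 0.4.4, FastQC and edgeR 3.16.5, and the build is mm10. The sources used here give neither the annotation nor the strand setting of counting. Per the file headers, the authors deposited whole-number counts for each gene. Their deposited RPKM values equal the count per kilobase of the listed length scaled by the library's summed counts, to within rounding, and were used only to compare levels between genes.

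Counts were filtered with filterByExpr (13956 of 24147 genes kept), scaled by TMM and tested with edgeR 4.0.16 (glmQLFit and glmQLFTest, R 4.3.3, two-sided, no covariate). Benjamini-Hochberg adjustment ran over all 13956. Standard errors came from the log2 fold change and its F statistic, and 95% intervals use them. The fit was tested on simulated data. The depth gives 1 count a value of 0.100 to 0.128 CPM, and floors of 3 counts cover counting error only. The biological coefficient of variation was 25.09%. No pair of libraries of a time differed by as little as sampling noise.

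The alternatives were RLE scaling, library totals, DESeq2 1.42.0, limma-voom (limma 3.58.1), no low-count filter, a minimum mean of 1 CPM, a test against a 1.5-fold change, a replicate block and leaving out each library. The members and lists were chosen with earlier results of these data known. The naming rule took the 10 members, the 3 most abundant members and the 2 with the lowest p of each other list, 8 fixed genes and the genes of like pattern. Other genes were chosen after their values were seen. Some genes that the rule names are not reported here. Positions are as deposited, on mm10, and strands are from GENCODE M21. The resident macrophage, C1 complex, monocyte, dendritic cell, neutrophil and macrophage activation lists hold genes that several cell types express.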

Additional observations from a re-analysis of the deposited data

How the results depend on the processing

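Every member kept its direction in the 14 alternatives except H2-Ab1, which was at -0.14 without 0 h replicate 1 or 24 h replicate 3 and was called in none. Of 140 values over the 10 members, 7 lost a call and 7 gained one. Members called lower were 2 in the main test and 1 with library totals only, with limma-voom, or against a 1.5-fold change, 3 with DESeq2 and with no low-count filter, and from 1 to 3 over the tests that left out 1 library. Members called higher were 0 in the main test, 1 with the replicate block (Cd74, adjusted p = 0.016, adjusted p from 0.016 to 0.457 over its alternatives; Ptprc, no member, gained a call there too, at 0.0176) and from 0 to 1 when 1 library was left out. Mrc1, near the threshold, had adjusted p = 0.0522 with library totals only, 0.0703 with limma-voom and 0.127 against a 1.5-fold change. Over all genes, 1060 were higher and 629 lower against a 1.5-fold change, where the main test had 2125 and 1817, and there were from 1551 to 1897 higher and from 1041 to 1648 lower when 1 library was left out. In the other lists the called lower genes were 12 in the main test, 4 against a 1.5-fold change, 19 with the replicate block and from 7 to 12 when 1 library was left out. Laptm5 and Lyz1, neither called, changed direction without 24 h replicate 3, to -0.26 and -0.58, with values up to 0.715 and 1.084 (without 0 h replicate 3). The replicate numbers share no stated litter or day, and deviations of same-numbered libraries correlated at 0.0866, 0.215 and 0.397, so they were not treated as pairs. 24 h replicate 1 correlated best with 0 h replicate 2 (0.172), while 24 h replicates 2 and 3 correlated best with the 0 h library of their own number. Whether same-numbered libraries share a source was not tested. Over all genes, the replicate block gave 2315 higher and 2174 lower. Depth limits Ciita and the lymphocyte, mast and dendritic cell lists, most of whose genes had few counts.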
